A study of Rattus norvegicus with 48 samples.

Results

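The serotonin 2C receptor gene, Htr2c, is the host of a group of microRNA (miRNA) hairpins on the rat X chromosome, and 4 names of the table of small RNA sequencing values belong to that group by the rule used here. They are the precursor names mir-448, mir-1298 and mir-1912 and the mature name miR-448-3p, 4 of 1063 names in all. The names were picked with earlier results from these libraries known: mir-448 and miR-448-3p were known for the ethanol effect in the amygdala of non-enriched rats, and all 4 for their uneven levels in the amygdala. Levels in the amygdala, their correlations and that ethanol effect are therefore given as a description without a test. The comparison between the regions uses the same levels, and its p-values and counts are read as a description.

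Htr2c codes for a receptor that couples serotonin to phospholipase C. It is found in neurons of the limbic system and striatum, and it is best known for its very high level in the epithelium of the choroid plexus, the tissue that makes cerebrospinal fluid. Hairpins inside a host gene are commonly cut from its primary transcript by Drosha, trimmed by Dicer, and loaded as mature miRNAs. A mature miRNA finds its target mRNAs chiefly through the seed, the bases near its 5′ end.

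The libraries came from the whole amygdala and ventral striatum of Long Evans rats at postnatal day 42. Dams had been injected on gestational day 12 with ethanol or with saline (control), and after weaning the offspring lived with littermates (non-enriched) or with unfamiliar rats of their age and sex from untreated dams (socially enriched). All dams were injected, and all offspring took the social interaction test before tissue was taken. Each library was made from RNA pooled from 3 rats of one sex, so the spread is between pools and not between animals. In each region 6 libraries stood for each of the 4 groups, 3 of females (F1 to F3) and 3 of males (M1 to M3), which gives 24 libraries per region and 48 in all. The libraries held 363141 to 1370413 reads under mature names. Values are in RPM, reads per 1000000, with mature and precursor names each scaled to 1000000 per library, so a precursor value is not compared with a mature value except as reads.

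RefSeq places 5 miRNA genes within the span of Htr2c, and 4 of them, Mir764, Mir1912, Mir1298 and Mir448, have names in the table. The other, Mir3552, was not among the names looked for. The 4 hairpins lie on the + strand of chromosome X, as Htr2c does (build GRCr8, sequences from RefSeq). In this order along the gene, mir-764 spans chrX:115490638-115490745, mir-1912 starts 7274 bases further on at chrX:115498019-115498106, mir-1298 another 58841 bases on at chrX:115556947-115557085, and mir-448 another 84870 bases on at chrX:115641955-115642066. The hairpins are known to sit in introns, and the exons of the gene were not used here. The 3 hairpins of the rule are shown whole because precursor names count reads anywhere on them, with the annotated mature miRNAs in capitals.
mir-448: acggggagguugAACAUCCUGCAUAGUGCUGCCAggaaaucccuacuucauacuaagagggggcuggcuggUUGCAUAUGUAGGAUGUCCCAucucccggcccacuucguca
mir-1298: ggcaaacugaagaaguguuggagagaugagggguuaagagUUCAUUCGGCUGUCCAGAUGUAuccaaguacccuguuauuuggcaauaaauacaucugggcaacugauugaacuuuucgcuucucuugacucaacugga
mir-1912: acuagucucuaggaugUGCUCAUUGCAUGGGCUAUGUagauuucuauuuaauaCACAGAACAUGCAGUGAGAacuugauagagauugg

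The mature miRNAs below show which target seeds the hairpins can supply, with bases 2 to 8 in capitals. The last, miR-153-3p, comes from chromosome 6 and is shown because it shares bases 2 to 7 (UGCAUA) with miR-448-3p, though not base 8.
miR-448-3p: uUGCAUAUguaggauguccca
miR-448-5p: aACAUCCUgcauagugcugcca
miR-1298: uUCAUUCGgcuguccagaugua
miR-1912-5p: uGCUCAUUgcaugggcuaugu
miR-1912-3p: cACAGAACaugcagugaga
miR-764-3p: gAGGAGGCcauaguggcaacugu
miR-153-3p: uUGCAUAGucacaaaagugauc
None of these 6 miRNAs of the Htr2c gene shared bases 2 to 7 with another of them. Among 693 mature rat miRNAs of RefSeq, miR-153-3p was the only one to share bases 2 to 7 with any of the 6, and none shared bases 2 to 8. These 6 miRNAs of one gene therefore supply different seeds, while miR-764-5p and the miRNAs of Mir3552 were not compared. No name for a mature miR-1912 was in the table.

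Ranges of all 4 names were narrower in the ventral striatum than in the amygdala. The precursor mir-1298 had a lowest, median and highest value of 437, 697 and 1137 RPM over the 24 libraries. The precursor mir-448 stood at 20.6, 40.8 and 71.7 RPM, and mir-1912 at 1.96, 7.95 and 17.2 RPM. The mature miR-448-3p stood at 8.92, 16.4 and 32.03 RPM. From the lowest to the highest library, mir-1298 thus differed 2.60-fold, mir-448 3.48-fold and miR-448-3p 3.59-fold. The 8.79-fold range of mir-1912 goes from a library with 2 reads to one with 21 reads. With so few reads counting error enters this range, and its share was not worked out.

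In the amygdala the same names spread over more than a 30-fold range. The precursor mir-1298 had a lowest, median and highest value of 235, 1291 and 8072 RPM, a 34.3-fold range. For mir-448 the values were 14.05, 65.6 and 505 RPM, a 35.98-fold range, and for miR-448-3p they were 2.70, 21.3 and 179 RPM, a 66.3-fold range. The precursor mir-1912 went from 0 in 1 library (control non-enriched M2) through a median of 21.7 RPM to 198 RPM. A count of 0 allows up to 3 reads, which bounds counting error only. Over the 24 libraries of the amygdala, the SD of log2(RPM + 1) was 2.23 for mir-1912, 1.86 for mir-1298, 1.78 for mir-448 and 1.69 for miR-448-3p, against a median SD of 0.42 over 910 names. They ranked 3, 13, 14 and 19 by that SD. With a median SD of 0.38 over 933 names, the ventral striatum had corresponding SDs of 0.65, 0.39, 0.41 and 0.45, with ranks of 209, 463, 432 and 387. The SD within the 8 cells of sex and treatment was as uneven, at 1.74 to 2.40 in the amygdala, against 0.42 to 0.60 in the ventral striatum, so the spread of the amygdala lies mostly between libraries of one cell.

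**Figure D1:**
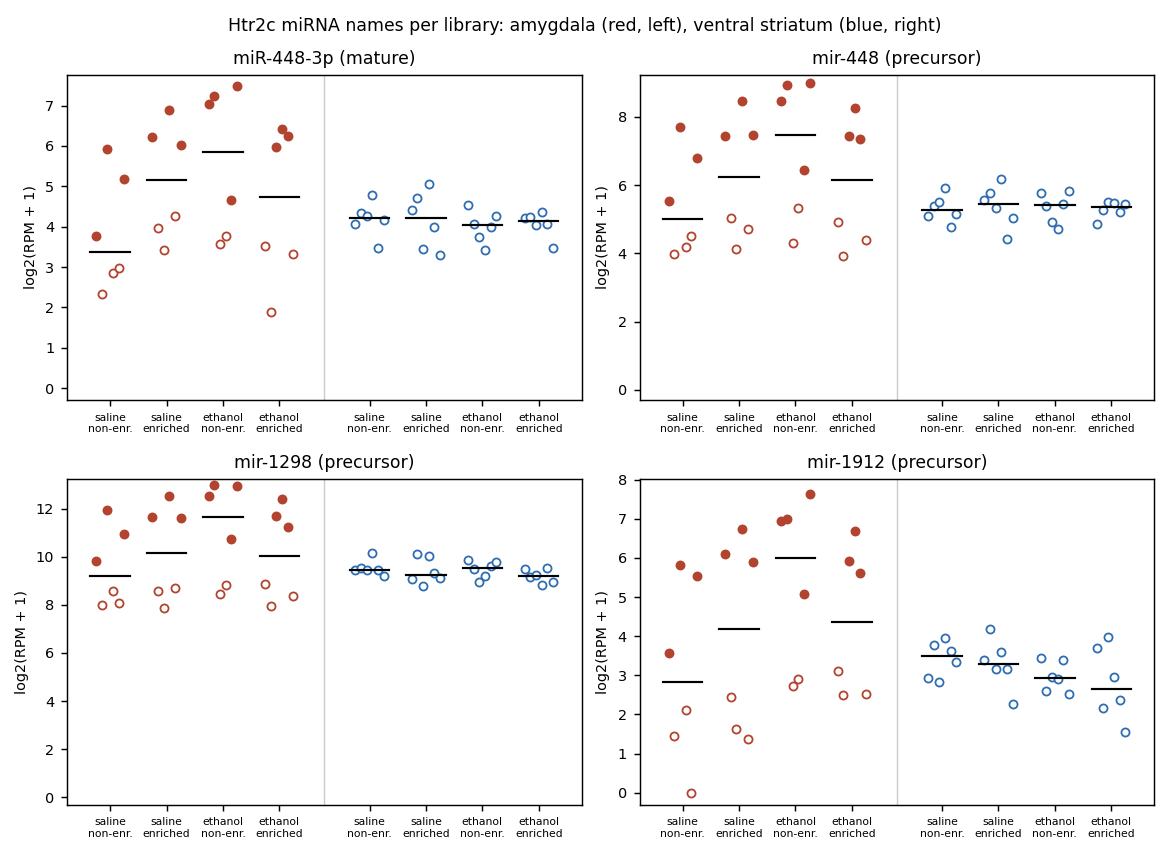
Levels of the 4 names in every library, as log2(RPM + 1), by region and treatment group (6 libraries each, bars are medians). Filled points are the 13 amygdala libraries whose miR-204-5p was above that of every ventral striatum library. The groups of the amygdala each hold high and low libraries, while those of the ventral striatum stay within a narrow band.

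The other names of the gene fell on either side of this pattern. The mature miR-1298, the only mature name of its hairpin in the table, went from 164 to 8597 RPM in the amygdala, a 52.5-fold range, and from 288 to 914 RPM in the ventral striatum, a 3.17-fold range. The passenger arm miR-448-5p stayed near the limit of detection, at 0 to 15.8 RPM in the amygdala, against 0.872 to 9.85 RPM in the ventral striatum. The precursor mir-764 differed. Although its hairpin lies nearest to mir-1912 in the same gene, it went only from 93.7 to 430 RPM in the amygdala, a 4.59-fold range, and from 248 to 528 RPM in the ventral striatum, a 2.13-fold range. Its SD in the amygdala of 0.60 ranked 322 of 910 names. The mature miR-764-3p had a like 4.78-fold range in the amygdala, from 104 to 495 RPM. Within the amygdala, the ratio of mir-1298 to mir-764 accordingly went from 1.203 to 21.7, while the ratio of mir-1298 to mir-448 stayed between 11.6 and 22.2 with a median of 16.9. In the ventral striatum, where the median of mir-1298 to mir-448 was 17.3, the ratio of mir-1298 to mir-764 went only from 1.10 to 2.61. Across the amygdala, the ratio of mir-1298 to mir-448 thus stayed within a 1.91-fold range while that to mir-764 spread over an 18.02-fold range. The ratio to mir-448 was wider in the ventral striatum, from 10.5 to 31.

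Across the 24 amygdala libraries, the 4 names rose and fell together. Pearson's r of log2(RPM + 1) for the 6 pairs of names lay between 0.92 and 0.99, Spearman's rho between 0.90 and 0.98, and r without the 2 libraries farthest from the median between 0.91 and 0.99. In the 24 ventral striatum libraries, r for the same pairs was 0.19 to 0.69 and rho 0.26 to 0.75, with r from 0.17 to 0.62 without the 2 farthest libraries. With mir-764, r of the 4 names was 0.70 to 0.74 in the amygdala, against 0.46 to 0.68 in the ventral striatum. The amygdala libraries fell into 2 sets by miR-204-5p, described further on, and within the sets of 13 and 11 libraries r between the 4 names was 0.96 to 0.99 and 0.15 to 0.80. These points share their library, its depth and its scaling, and they are a description of the libraries. In the amygdala depth followed the names weakly, with r of 0.25 to 0.29 with the log2 number of mature reads. In the ventral striatum this r was 0.017 to 0.47, highest for mir-448, and the part of depth was not tested.

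The names outside the gene that most resembled the 4 names were markers of the choroid plexus and of ciliated cells. Among 385 precursor names, mir-204, a miRNA very abundant in choroid plexus epithelium, was the most like mir-448 (r = 0.94 over 48 libraries), mir-1298 (r = 0.93) and mir-1912 (r = 0.89). Its relative mir-211 and mir-34c, a miRNA of cells with many motile cilia, took the next places for mir-448 (r = 0.79 and 0.80) and mir-1298 (r = 0.82 and 0.80). The next places for mir-1912 went to mir-34c (r = 0.81) and mir-34b (r = 0.79). Among 464 mature names, miR-448-3p was most like miR-204-5p (r = 0.89), miR-34c-5p (r = 0.75) and miR-204-3p (r = 0.74). The likeness to mir-204 came from the amygdala, where it is pooled over 2 sets of libraries. There r with mir-204 was 0.97 for mir-448, 0.97 for mir-1298, 0.94 for mir-1912 and 0.94 for miR-448-3p, while in the ventral striatum it was 0.25, −0.38, −0.51 and −0.24. Over all 48 libraries, the median r over the names compared was between −0.073 and −0.11.

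**Figure D2:**
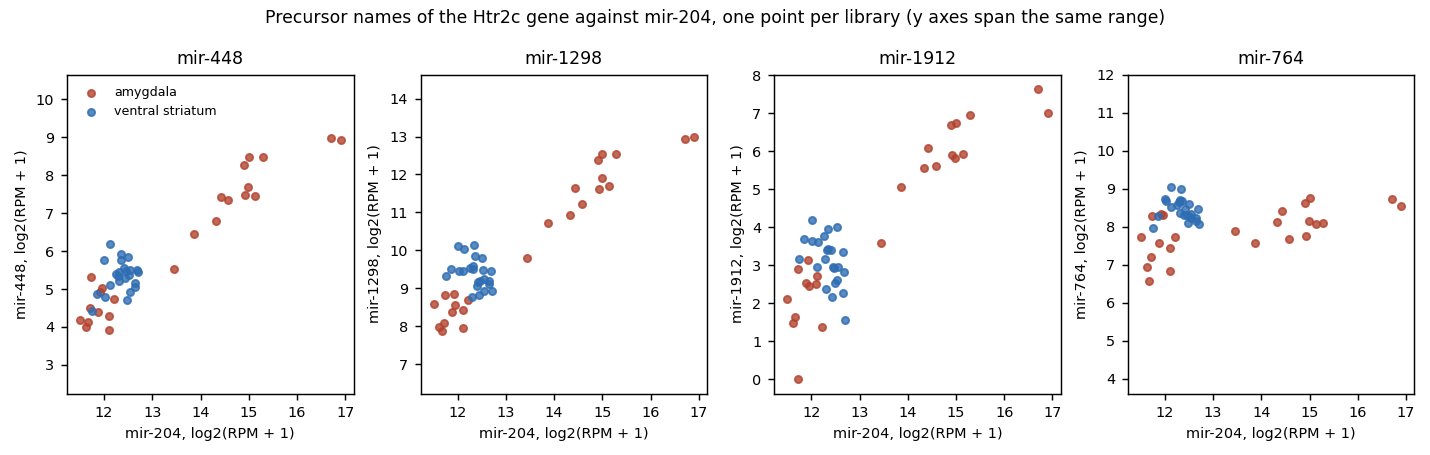
Precursor names of the Htr2c gene (y axis, log2(RPM + 1)) against mir-204 (x axis, log2(RPM + 1)), with one point per library in red for the amygdala and blue for the ventral striatum. In the amygdala mir-448, mir-1298 and mir-1912 climb along with mir-204, whereas mir-764 stays within a 4.59-fold range and the ventral striatum libraries form one group.

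The level of miR-204-5p split the amygdala libraries at a gap. In 13 of 24 libraries it lay between 11586 and 122453 RPM, above the 6958 RPM of the highest ventral striatum library, and in the other 11 it lay between 3085 and 5071 RPM. All 3 precursor names of the rule followed the split without overlap. The share of all names that separated so is not given here, and the count is a description. In the 13 libraries mir-1298 was between 891 and 8072 RPM with a median of 3292 RPM, and in the other 11 between 235 and 463 RPM with a median of 344 RPM. The corresponding medians were 176 and 20.1 RPM for mir-448 and 59.5 and 4.42 RPM for mir-1912. For miR-448-3p the medians were 74.2 and 9.63 RPM, and the ranges of 12.6 to 179 RPM and 2.70 to 18.4 RPM overlapped. The medians of mir-764, 277 and 188 RPM, stood 1.48-fold apart, and its ranges overlapped as well.

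Ciliated cell markers followed the split as well. All 8 ciliated cell names (3 precursor and 5 mature names of mir-34b, mir-34c and mir-449a) were above the other 11 libraries without overlap. Here too the share of all names is not given. Of the choroid plexus names, miR-204-5p defined the split and mir-204 is its precursor, so their separation is no further finding. The remaining choroid plexus names overlapped, with medians in the 13 and the 11 libraries of 63.8 and 31.5 RPM for miR-211-5p and of 83.02 and 30.8 RPM for mir-211. The median of mir-34c was 5618 RPM in the 13 libraries and 359 RPM in the others. Within the 13 libraries, r of the 4 names was 0.85 to 0.89 with mir-204, 0.93 to 0.97 with mir-34c and 0.66 to 0.74 with mir-764. Within the 11 libraries, the corresponding values were 0.15 to 0.32, 0.15 to 0.60 and 0.50 to 0.94. Median depth was 952696 mature reads in the 13 libraries and 795393 in the 11, with overlapping ranges.

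Over the 24 amygdala libraries, the summed level of the choroid plexus markers ran from 3120 to 122541 RPM on the mature scale, that of the ciliated cell markers from 157 to 14274 RPM, and that of the 4 neuronal markers (miR-124-3p, miR-128-3p, miR-9a-5p and miR-138-5p) from 27585 to 52338 RPM. Ventral striatum sums were 3827 to 6987 RPM, 154 to 5745 RPM and 28328 to 54641 RPM. Neuronal markers were high in every library of both regions, and no choroid plexus marker was at 0 in any library. The r of the 4 names with the neuronal markers was negative in the amygdala, at −0.73 to −0.17, and ran from −0.0089 to 0.71 in the ventral striatum. The part of other cell types in the levels of the 4 names was not tested. In tissue RNA, more cells of a type and more RNA per cell cannot be told apart.

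The high libraries were spread over the treatment groups. They made up 4 of 6 libraries of ethanol-exposed non-enriched rats (F1, F2, M2 and M3) and 3 of 6 of each other group (F1, F3 and M3 of control non-enriched, F1, M1 and M3 of control enriched, F3, M1 and M2 of ethanol-exposed enriched rats). By sex they were 6 of 12 libraries of females and 7 of 12 of males.

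The share of hairpin reads that fell under a mature name also followed the split for mir-1298. Reads were worked out from the smallest step between values of a library. Of the ventral striatum reads of mir-1298, 57.1% to 70.7% were counted as miR-1298, with a median of 68.0%. In the 13 amygdala libraries the share was 81.1% to 93.0% with a median of 90.7%, and in the other 11 it was 55.7% to 69.5% with a median of 63.1%. At overlapping levels of the hairpin the shares can be set side by side for single libraries. The amygdala library control non-enriched F1, with 891 RPM of mir-1298, had a share of 81.1% (exact 95% binomial interval 77.3% to 84.4%, 491 reads). The ventral striatum library control non-enriched M1, with 1137 RPM, had a share of 67.9% (65.6% to 70.1%, 1720 reads). Such intervals rest on reads worked out from the values, and they cover counting error only, not the spread between libraries. The part of the level in these shares was not tested. The mir-1298 reads outside the mature name ranged from 74.9 to 613 per 1000000 precursor reads in the amygdala, a narrower range than that of the hairpin as a whole.

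For mir-764 and mir-448 the shares overlapped between the 13 and the other 11 libraries, and mir-1912 has no mature name in the table to give a share. The share of mir-764 reads counted as miR-764-3p was 92.3% to 98.9% in the 13 libraries and 91.7% to 99.2% in the 11, and that of mir-448 reads counted as miR-448-3p was 23.96% to 39.7% and 16.7% to 62.5%. By region, for mir-764, 91.7% to 99.2% of the reads were counted as miR-764-3p in the amygdala, against 94.7% to 99.2% in the ventral striatum. For mir-448, only 16.7% to 62.5% (median 30.4%) were counted as miR-448-3p in the amygdala, against 20.5% to 61.1% (median 37.2%) in the ventral striatum. A median of 66.2% of mir-448 reads in the amygdala, against 58.5% in the ventral striatum was counted under neither arm. The precursor name mir-448 therefore holds mostly reads that the mature names do not, and what those reads are is not given by the table. The 2 names rose together all the same, with r = 0.98 in the amygdala, against 0.69 in the ventral striatum.

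**Figure D3:**
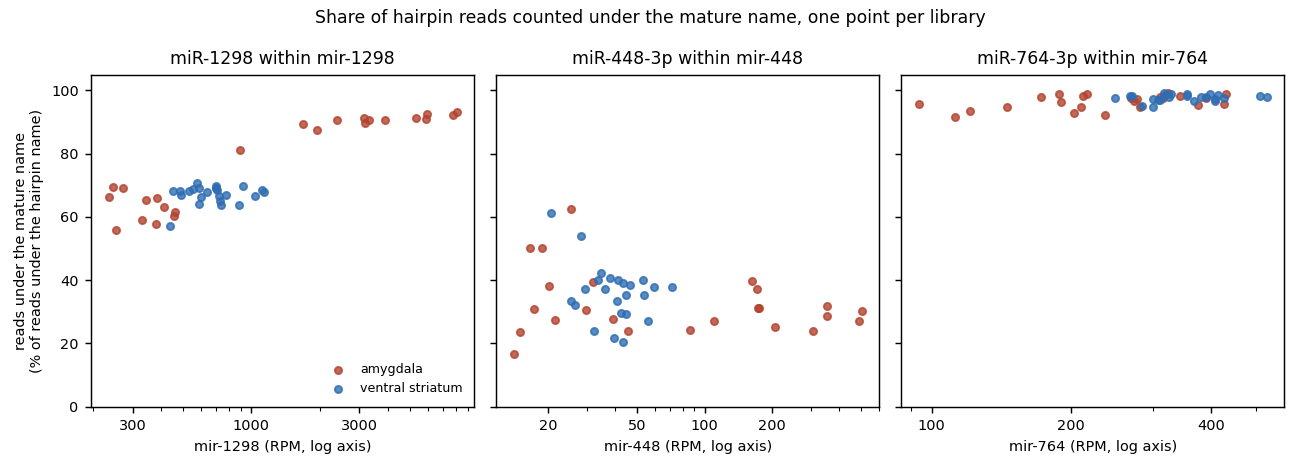
Share of hairpin reads counted under the mature name (y axis, %) against the level of the hairpin (x axis, RPM, log axis), one point per library, red for the amygdala and blue for the ventral striatum. For mir-1298 the high amygdala libraries reach 81.1% to 93.0%, for mir-764 all libraries lie above 91%, and for mir-448 the share lies between 16.7% and 62.5%.

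The ethanol effect in the amygdala of non-enriched rats, A N(EvC), compared ethanol-exposed with control libraries, and it is the comparison for which mir-448 was known. In the 6 ethanol-exposed libraries, mir-1298 had a lowest, median and highest value of 344, 3809 and 8072 RPM, and in the 6 control libraries 254, 637 and 3875 RPM. For mir-448 the values were 18.7, 219 and 505 RPM against 14.9, 33.5 and 206 RPM. For miR-448-3p they were 10.9, 76.9 and 179 RPM against 4.07, 9.70 and 59.97 RPM, and for mir-1912 they were 5.61, 77.4 and 198 RPM against 0, 7.10 and 55.8 RPM. The groups overlapped for every name: ethanol-exposed F3 and M1 lay among the low control libraries, and control F3 and M3 above ethanol-exposed M2.

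On the log2(RPM + 1) scale the A N(EvC) differences were 1.79 ± 0.97 (SE) for miR-448-3p, 1.62 ± 1.07 for mir-448, 1.52 ± 1.13 for mir-1298 and 2.29 ± 1.34 for mir-1912, all higher with ethanol. Over all 910 names tested, none was called at an adjusted p under 0.05 by limma (0%), and 4.51% had an unadjusted p under 0.05. The median difference over all names was −0.083. Beside the 4 names, miR-204-5p was 1.46 higher and mir-764 0.45 higher. The summed mature choroid plexus markers had a median of 26213 RPM in the ethanol-exposed and 7624 RPM in the control libraries, and the ciliated cell markers 7572 and 1644 RPM. Leaving out the 13 libraries left 2 ethanol-exposed and 3 control libraries. The differences were then 1.04 for miR-448-3p, 0.64 for mir-448, 0.46 for mir-1298 and 1.56 for mir-1912. The part of the choroid plexus in this comparison was not tested.

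The remaining treatment comparisons in the amygdala asked whether ethanol acted in enriched rats, A S(EvC), and whether enrichment acted in control, A C(SvN), or ethanol-exposed rats, A E(SvN). None of the 4 names was called in any of them by limma at an adjusted p under 0.05, against a background of 0% of 910 names in each. At an unadjusted p under 0.05 the count of the 4 names was also 0 in each, against 3.85%, 2.64% and 2.64% of all names. A three-way model (ethanol, enrichment and sex) on unlogged values called 0 of the 4 as well. The share of all names called by that model is not given here or further on. The 4 names were picked with their uneven amygdala levels known, and that spread is the error of these tests. A count of 0 was thus likely from the choice, and A C(SvN) and A E(SvN) reuse libraries of A N(EvC).

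In enriched rats, ethanol-exposed and control libraries had medians of 1425 and 1771 RPM for mir-1298, of 95.9 and 101 RPM for mir-448, and of 36.1 and 41.0 RPM for miR-448-3p. Their differences were −0.077 ± 1.13, −0.16 ± 1.07 and −0.57 ± 0.97 (SE), and that of mir-1912 was 0.37 ± 1.34. Among control rats, the enriched libraries had higher values for all 4 names, by 0.60 ± 1.13 for mir-1298 to 1.29 ± 0.97 for miR-448-3p, with a smallest unadjusted p of 0.202. Among ethanol-exposed rats, the enriched libraries had lower values for all 4 names, by −0.98 ± 1.34 for mir-1912 to −1.07 ± 0.97 for miR-448-3p, with a smallest unadjusted p of 0.289. With 1 library left out, the difference among control rats ran from 0.033 to 1.16 for mir-1298 and from 0.27 to 1.77 for mir-1912, and that among ethanol-exposed rats from −1.71 to −0.42 for mir-1298 and from −1.69 to −0.37 for mir-1912. The marker miR-204-5p differed with enrichment by 0.42 among control rats and by −0.998 among ethanol-exposed rats. The summed choroid plexus markers had medians of 13378 RPM in enriched and 7624 RPM in non-enriched control libraries, and of 14634 and 26213 RPM in the ethanol-exposed ones. For the ciliated cell markers these medians were 3038 and 1644 RPM, and 3773 and 7572 RPM. The part of these cell types in the comparisons was not tested. These comparisons share libraries with A N(EvC): the control non-enriched group is the lowest and the ethanol-exposed non-enriched group the highest of the 4 by median. The 95% intervals ran, for mir-1298, from −2.46 to 2.30 in A S(EvC), from −1.78 to 2.98 in A C(SvN) and from −3.37 to 1.39 in A E(SvN). Each of these intervals holds a 2-fold difference in either direction (1 on the log2 scale), so a difference of that size was not detectable in the amygdala with this spread. Without the 13 libraries of high miR-204-5p, limma again called 0 of the 4 names in A S(EvC), A C(SvN) and A E(SvN), against 0%, 0.121% and 0.121% of 828 names. Leaving out each library in turn changed no call, and it turned the direction of mir-448, mir-1298 and mir-1912 in A S(EvC).

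Differences in the ventral striatum were small. The medians of mir-1298 were 701 RPM without and 597 RPM with enrichment in control libraries, and 741 RPM without and 590 RPM with enrichment in ethanol-exposed libraries. In the same order the medians of mir-448 were 37.9, 42.9, 41.5 and 40.5 RPM, for miR-448-3p 17.7, 17.7, 15.4 and 16.7 RPM, and for mir-1912 10.2, 8.76, 6.67 and 5.46 RPM. All neighbouring groups overlapped in their libraries.

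Limma called none of the 4 names in V N(EvC), V S(EvC), V C(SvN) or V E(SvN), against 0% of 933 names in each. At an unadjusted p under 0.05 the counts of the 4 names were 0 as well, against 2.04%, 2.25%, 3.86% and 1.82% of all names, and the three-way model on unlogged values called none. For mir-1912 the difference with ethanol was −0.44 ± 0.34 (SE) in non-enriched and −0.51 ± 0.34 in enriched rats. The other differences with ethanol lay between −0.21 and 0.033, and those with enrichment, mir-1912 included, between −0.28 and 0.078. The intervals were narrower here. For mir-1298 they went from −0.56 to 0.44 in V N(EvC), from −0.71 to 0.29 in V S(EvC), from −0.63 to 0.37 in V C(SvN) and from −0.78 to 0.22 in V E(SvN), so that a 2-fold difference lay outside each of them. For mir-1912 they were wider and held a 2-fold decrease with ethanol, from −1.16 to 0.28 in V N(EvC) and from −1.23 to 0.22 in V S(EvC).

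Exact permutation tests of the mean RPM gave the same counts. In 28 two-sided tests, 4 names in 7 comparisons of 6 against 6 libraries without A N(EvC), the exact p ran from 0.0952 to 0.974, where the smallest this design allows is 0.00216. The smallest belonged to mir-1912 in V N(EvC), with 7.07 ± 2.14 RPM (SD, n = 6) in ethanol-exposed and 10.1 ± 3.37 RPM in control libraries. No p was under 0.05 before any adjustment. In none of the 32 comparisons of 6 against 6 libraries, A N(EvC) included, did the groups of any of the 4 names lie apart. The tests and this count were made for named miRNAs only, so no share of all names stands beside them.

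**Figure D4:**
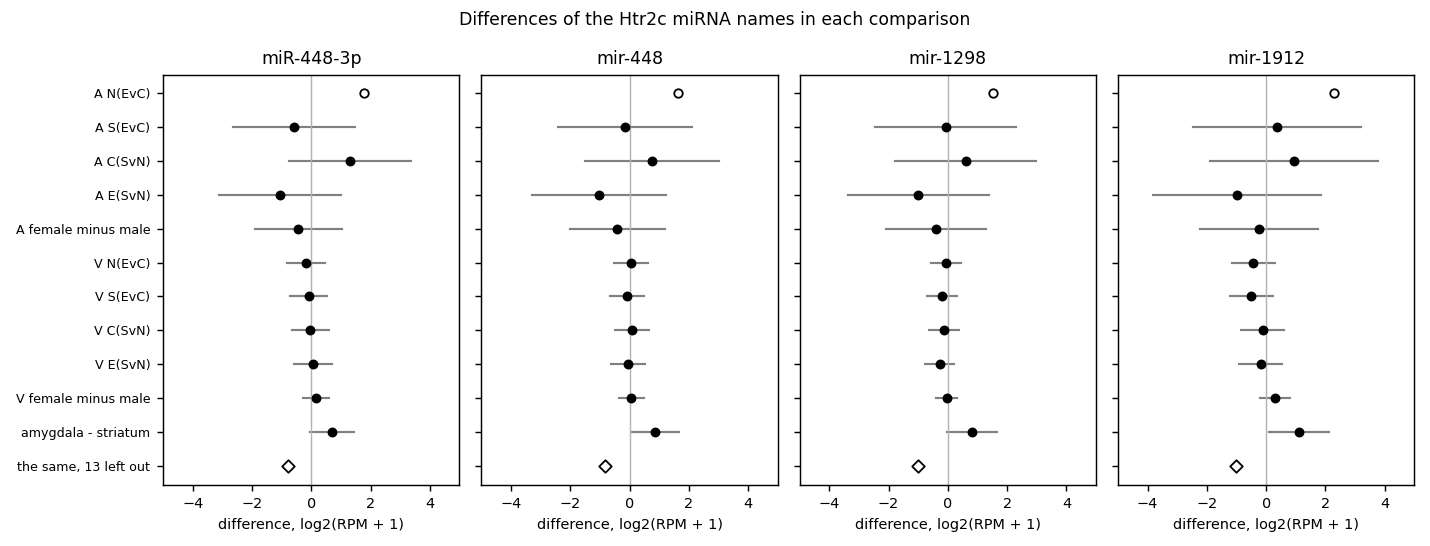
Differences of the 4 names on the log2(RPM + 1) scale (x axis) in each comparison (y axis, A for amygdala and V for ventral striatum), with 95% intervals from limma as bars. Open circles are the A N(EvC) values, given without an interval, and open diamonds the difference between the regions without the 13 amygdala libraries of high miR-204-5p. The bars of the amygdala are far wider than those of the ventral striatum, and the region difference changes sign between the last 2 lines.

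By sex, none of the 4 names passed the test in either region. The host gene is X-linked. In the amygdala the medians of mir-1298 were 677 RPM in the 12 libraries of females and 1821 RPM in the 12 of males, with values from 235 to 8072 RPM and from 272 to 7777 RPM. The female minus male differences were −0.43 ± 0.69 (SE) for miR-448-3p, −0.42 ± 0.76 for mir-448, −0.39 ± 0.80 for mir-1298 and −0.24 ± 0.95 for mir-1912. In the ventral striatum the medians of mir-1298 were 701 and 667 RPM, and the differences of the 4 names lay between −0.047 and 0.29. Limma called 0 of the 4 names in both regions, with 0% of all names called. At an unadjusted p under 0.05 it was 0 of 4 against 4.18% of names in the amygdala, against 2.89% in the ventral striatum, and the three-way model called 0 of 4. Without the 13 libraries it was 0 of 4 in the amygdala against 0.242% of 828 names.

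Between the regions, whole groups gave a higher level in the amygdala that was not called. All 4 names were picked with their uneven amygdala levels known, so the p-values and counts given for them here are a description. The differences, amygdala minus ventral striatum, were 1.11 ± 0.50 (SE) for mir-1912, 0.86 ± 0.40 for mir-448, 0.81 ± 0.41 for mir-1298 and 0.68 ± 0.37 for miR-448-3p, with limma adjusted p of 0.0876, 0.0959, 0.139 and 0.157. None of the 4 names was called, whereas 30.3% of the 915 names tested were (8.74% higher and 21.5% lower in the amygdala). At an unadjusted p under 0.05 it was 2 of 4, against 41% of the names. The three-way model on unlogged values, with region added, called 4 of 4 as higher in the amygdala. Unlogged means weigh high libraries more, and the part of this in the calls was not tested. With pseudocount 10, 1 of 4 was called. Leaving out any of 5 amygdala libraries, each of them low in miR-204-5p, also produced calls. Without ethanol-exposed non-enriched F3 there were 3, and without control enriched M2 or ethanol-exposed enriched M3 there were 2. Without control non-enriched M2 or ethanol-exposed non-enriched M1 there was 1. For the unlogged, pseudocount 10 and left-out fits, the share of all names called is not given here. Both regions were dissected from the same rats, and the labels give each ventral striatum library and an amygdala library of the same sex and treatment consecutive numbers, without saying that these pools hold the same rats. Deviations of the 24 consecutive pairs had a median r of 0.056, with 10 pairs over 0.1. With these pairs as a random block (consensus correlation 0.0545), 0 of the 4 names were called and the differences were the same.

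The direction itself turned with the libraries used. Without the 13 amygdala libraries of high miR-204-5p, an alternative chosen after the values were seen, the differences were −0.78 for miR-448-3p, −0.82 for mir-448, −0.99 for mir-1298 and −1.004 for mir-1912. In these 11 libraries, 11 of 11 values of mir-1298, mir-448 and mir-1912 and 10 of 11 of miR-448-3p lay under the median of the ventral striatum, and under its lowest library lay 9 of 11 values of mir-1298, 6 of mir-448, 4 of miR-448-3p and 3 of mir-1912. As miR-204-5p moved with the 4 names, leaving these libraries out also takes away the libraries highest in the names, and the change of sign is no test of the regions.

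The precursor mir-764 and its main arm miR-764-3p were lower in the amygdala with either set of libraries. Limma gave a difference of −0.56 ± 0.15 (SE) for mir-764 (adjusted p = 0.00449) and −0.59 ± 0.15 for miR-764-3p (adjusted p = 0.00338), and without the 13 libraries the differences were −0.90 and −0.93. The other arm, miR-764-5p, had at most 12.6 RPM in any library, a difference of 0.031 ± 0.25 (adjusted p = 0.958) and one of −0.40 without the 13 libraries. In the same fit miR-1298 was 0.98 ± 0.47 higher in the amygdala (adjusted p = 0.111), and miR-204-5p 1.13 ± 0.37 higher (adjusted p = 0.0198), turning to −0.48 without the 13 libraries. The seed relative miR-153-3p was 0.64 ± 0.094 lower in the amygdala (adjusted p = 2.83e-06).

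The order of the 8 groups by median had an amygdala group at the top for each of the 4 names, ethanol-exposed non-enriched, followed by control enriched and ethanol-exposed enriched. The fourth amygdala group, control non-enriched, came last for mir-448 and miR-448-3p and in the sixth place for mir-1298 and mir-1912, among the groups of the ventral striatum. Every group overlapped with its neighbour in that order for every name. Tests of whether a comparison differed between the regions were run for S(EvC), C(SvN), E(SvN) and sex. They called 0 of the 4 names in each, with 0% of 915 names called. At an unadjusted p under 0.05 it was 0 of 4, against 2.08%, 2.62%, 2.19% and 2.19% of names. The three-way model with region added also called 0 of 4. Without the 13 libraries, 11 amygdala libraries were left for 8 cells of sex and treatment, too few for these tests. In the same order the values of mir-1298 were then 0.13, 0.43, 0.035 and −0.25.

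The seed relative miR-153-3p, which shares bases 2 to 7 with the miR-448-3p sequence shown above, had higher RPM values. It ranged from 1831 to 4805 RPM in the amygdala and from 3391 to 7042 RPM in the ventral striatum, while miR-448-3p never exceeded 179 RPM. Across amygdala libraries miR-153-3p ran against the 4 names, with r from −0.59 for mir-1298 to −0.55 for miR-448-3p. Across ventral striatum libraries miR-153-3p ran with them, with r = 0.61 for miR-448-3p, 0.44 for mir-448, 0.90 for mir-1298 and 0.54 for mir-1912. The negative sign did not hold within the sets of libraries: r for the 4 names was −0.11 to −0.0016 within the 13 amygdala libraries of high miR-204-5p and 0.11 to 0.67 within the other 11.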

How the data were processed

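Small RNA libraries (TruSeq, gel-purified small RNAs) were made from 48 pools of RNA, each from 3 rats. Trimming, Bowtie alignment to Rn5 and quantification in Partek were done by the authors, against miRBase names for precursor and mature miRNAs. The deposited table holds a normalized signal described as RPM, in which mature and precursor values each sum to 1000000 per library. The handling of reads matching more than one name is not given in the sources used here. The names and lists described here were chosen with earlier results of these data known.

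Of the table's lines, 122 carried one of 56 repeated names, and lines of a name were added up. Reads were worked out from the smallest step between values, which made 91.4% to 99.5% of low mature values and 86.6% to 92.1% of low precursor values whole within 0.05 of a read. That share was too low for a count test. One read was worth 0.73 to 2.75 RPM of mature and 0.635 to 2.39 RPM of precursor reads.

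Names above 0 in at least 6 of 24 libraries (12 of 48 for the regions) entered limma 3.58.1 in R 4.3.3 (lmFit, contrasts.fit, eBayes with trend) as log2(RPM + 1), with 8 cells of sex and treatment per region or 16 cells over both. A fold change on this scale understates that of low names. Two-sided p-values received Benjamini-Hochberg adjustment over all names tested, with a threshold of 0.05. The model was tested on simulated data. For mean RPM, exact permutation tests were run with scipy 1.17.1 (Python 3.11.15). Where labels do not say which rats were pooled, p-values measure the spread between these pools.

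Named miRNAs were the 4 names, other names of the Htr2c gene region, the marker names, the 3 names most like each of the 4 by Pearson's r among those above 0 in at least 24 of 48 libraries, and mature names sharing bases 2 to 7. Names for mir-1264 and mir-1911 were looked for and were not analysed here. Alternatives were other pseudocounts, filters and scalings, fits of mature and precursor names apart, a three-way model on unlogged values, fits to 12 libraries, blocks, each library left out and, added after the values were seen, the amygdala without libraries of high miR-204-5p. For comparisons between the regions, the three-way model also held region. Sequences and positions came from RefSeq (GRCr8), not the build of the alignment.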

Additional observations from a re-analysis of the deposited data

Results flagged for a closer look

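One value stood far from the others of its group. In the ventral striatum of control non-enriched rats, the library M1 had 1137 RPM of mir-1298, and the nearest of the other 5 had 737 RPM, with a group median of 701 RPM. The gap was 0.725 of the range of the group, above Dixon's 95% critical value for 6 libraries. It was the only such value among 32 groups of 6 libraries (4 names, 4 treatment groups, 2 regions), where chance flags about 1 in 20. The same library was the highest of its group for miR-448-3p (26.6 RPM), mir-448 (59.5 RPM), mir-1912 (14.5 RPM) and mir-764 (509 RPM). Its miR-204-5p was 5745 RPM, inside the range of the group.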

How the results depend on the processing

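Apart from A N(EvC), which was not tested for the 4 names, the treatment and sex comparisons and their differences between the regions kept a count of 0 called names under the alternatives run. For the amygdala minus ventral striatum the count of 0 became 1 with pseudocount 10. In the three-way model on unlogged values, with region added, it became 4. It was 0 to 3 when 1 library was left out, and 4 without the 13 libraries of high miR-204-5p (18.4% of 900 names called). The calls without the 13 are no test of the regions, as these libraries were chosen after the values were seen. They were chosen by miR-204-5p, which moved with the 4 names. For the other fits the share of all names called is not given here. Without the 13, the differences between the regions reversed to −0.78, −0.82, −0.99 and −1.004 (miR-448-3p, mir-448, mir-1298, mir-1912). That of mir-1912 in A female minus male reversed to 0.29. On unlogged values, mir-1912 reversed to −2.35 RPM in A S(EvC) and 0.123 RPM in V E(SvN), and miR-448-3p to 0.717 RPM in V C(SvN). The causes of these reversals were not tested. With 1 library left out, these differences changed sign, in log2. In A S(EvC), mir-448 ran from −0.70 to 0.41, mir-1298 from −0.64 to 0.49 and mir-1912 from −0.46 to 1.04, and in A female minus male mir-1912 from −0.65 to 0.13. In V N(EvC), mir-448 ran from −0.093 to 0.19 and mir-1298 from −0.17 to 0.077, and in V S(EvC) miR-448-3p from −0.29 to 0.14 and mir-448 from −0.29 to 0.15. In V C(SvN), miR-448-3p ran from −0.26 to 0.17, mir-448 from −0.16 to 0.28, mir-1298 from −0.33 to 0.0048 and mir-1912 from −0.27 to 0.070. In V E(SvN), miR-448-3p ran from −0.057 to 0.18, mir-448 from −0.20 to 0.080 and mir-1912 from −0.36 to 0.097, and in V female minus male mir-448 from −0.035 to 0.18 and mir-1298 from −0.15 to 0.022.

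The labels' replicate numbers only name libraries. Same-numbered libraries deviated together with a median r of 0.023 (amygdala) and −0.0055 (ventral striatum), with r over 0.1 for 32 and 31 pairs out of 84 each. With the replicate block, 0 of 4 names were called in every comparison tested. Rescaling moved the median of all names by under 0.1 in each comparison. Low reads limit mir-1912 and miR-448-5p most.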
